A study of Mus musculus with 12 samples.

Results

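The genes described here are 10 regulators of fat and energy metabolism: the peroxisome proliferator-activated receptors Pparg, Ppara and Ppard, the retinoid X receptors Rxra, Rxrb and Rxrg, the oxysterol receptor LXR alpha (Nr1h3), the orphan receptors Esrra and Esrrg, and the zinc finger factor Klf15. They were taken as every array probe whose RefSeq accession maps to 1 of these gene symbols, which gave 16 probes for the 10 genes, among 31453 genes or unnamed probes tested. All 16 probes were well above background on all 12 arrays and none was saturated. Each gene is given by its probe with the highest mean, and the other probes are named where they differed.

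PPARs bind DNA as heterodimers with an RXR partner, and their ligands are fatty acids and fatty acid derivatives. PPAR gamma is the master regulator of fat cell differentiation and lipid storage, PPAR alpha drives fatty acid oxidation in peroxisomes and mitochondria, and PPAR delta acts on oxidation in many tissues. LXR alpha, another RXR partner, senses oxysterols and turns on cholesterol export and fatty acid synthesis. The ERRs bind DNA as monomers or dimers without a known natural ligand and act with Ppargc1a on mitochondrial genes, and Klf15 acts on amino acid breakdown, gluconeogenesis and fat cell differentiation.

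RNA came from gonadal white fat of males of the C57BL/6N strain in all groups, with 3 one-colour arrays for each of 4 genotypes: wild type (WT), Gadd45a-/- (labelled Gadd45a-KO), Ing1-/- (Ing1-KO) and Gadd45a-/-;Ing1-/- (DKO). The mutants came from interbreeding the lines lacking Gadd45a and Ing1, and no treatment is named in the labels. Animals were 59 to 67 days old. RNA of 3 animals was pooled for each array, so that 9 animals stand behind a genotype and the spread between arrays is that between pools.

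Median processed signals were 39.3 to 68.8 intensity units, and 58.2% to 68.1% of 59305 spots were well above background, with WT replicate 2 lowest in both. The replicate number equals the slide, so every genotype is on each of 3 slides. The 3 Ing1 probes were lower on all 6 arrays labelled Ing1-KO or DKO; on the brightest, those arrays lay between 9.13 and 9.60 log2 units against 12.37 to 12.78 on the 6 others. The single Gadd45a probe was higher on the arrays labelled Gadd45a-KO or DKO (10.05 to 10.62) than on the others (9.06 to 9.80). Whether it lies in the deleted region is not given in the sources used here, so every statement on Gadd45a rests on the labels alone. All 10 fat cell markers were above background on every array, as were the 9 T cell, 6 B cell and 7 endothelial markers, while 6 of 9 epididymis and testis markers and 4 of 7 mesothelial markers did not pass the filter on dim probes. By the mean log2 signal over 15 skeletal muscle markers, 3 arrays were highest. These were Ing1-KO replicate 1 (9.69), DKO replicate 1 (8.69) and Gadd45a-KO replicate 1 (7.51). By the log2 of the summed signal, Ing1-KO replicate 1 (15.51) and DKO replicate 1 (14.46) were again highest. Gadd45a-KO replicate 1, at 13.58 by that sum, lay below DKO replicate 2 (13.93) and WT replicate 2 (13.59). In whole tissue, fewer cells of a type and less RNA per cell cannot be told apart.

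The promoters of 4 of the 10 genes are shown because these genes were the ones higher in DKO than in Gadd45a-KO below. Each is the 250 bases before a transcription start in RefSeq, build GRCm38.p6, written 5′ to 3′ on the gene's strand; all 10 genes had at least 1 entry, 19 starts in all. For genes with several starts, the one holding TTGCNNAA is shown. Capitals mark the nuclear receptor half-site AGGTCA, the C/EBP-type letters TTGCNNAA and the E-box CACGTG, each searched on both strands, so that a capital run can be the reverse complement.

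Klf15, chr6:90462326-90462575, plus strand: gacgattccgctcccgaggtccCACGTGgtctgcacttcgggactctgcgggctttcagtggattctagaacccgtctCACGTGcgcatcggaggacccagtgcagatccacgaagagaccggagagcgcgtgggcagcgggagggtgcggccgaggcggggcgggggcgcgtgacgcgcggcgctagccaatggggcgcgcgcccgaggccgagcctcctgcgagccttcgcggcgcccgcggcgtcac

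Ppara, chr15:85735526-85735775, plus strand: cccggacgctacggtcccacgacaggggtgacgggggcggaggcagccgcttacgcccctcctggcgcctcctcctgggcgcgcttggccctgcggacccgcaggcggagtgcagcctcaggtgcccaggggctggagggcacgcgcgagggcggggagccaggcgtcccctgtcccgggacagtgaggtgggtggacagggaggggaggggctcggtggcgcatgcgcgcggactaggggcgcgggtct

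Pparg, the third of 3 starts, chr6:115421816-115422065, plus strand: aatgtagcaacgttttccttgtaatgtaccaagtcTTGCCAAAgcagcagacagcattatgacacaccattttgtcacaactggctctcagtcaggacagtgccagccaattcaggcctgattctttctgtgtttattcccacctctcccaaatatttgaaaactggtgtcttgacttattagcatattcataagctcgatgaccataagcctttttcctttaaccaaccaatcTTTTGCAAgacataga

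Rxrg, the second of 2 starts, chr1:167618015-167618264, plus strand: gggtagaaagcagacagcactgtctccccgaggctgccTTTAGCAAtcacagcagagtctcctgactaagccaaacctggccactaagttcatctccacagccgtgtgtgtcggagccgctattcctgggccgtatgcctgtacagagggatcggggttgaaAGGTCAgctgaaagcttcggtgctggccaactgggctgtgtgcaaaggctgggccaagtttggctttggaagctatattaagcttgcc

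The Klf15 promoter held CACGTG at 2 places, and that motif is in 6.02% of 32851 mouse promoters of this length. The third Pparg start had TTGCNNAA at 2 places and the second Rxrg start at 1. These starts are shown because they hold it, so the share of all promoters is no comparison for them. Over the 19 promoters it was in 3, against 9.56% of all promoters. AGGTCA was in the second Rxrg start, where it lies within the longer AAGGTCA, and in the other Pparg starts, against 14% of promoters for AGGTCA and 4.08% for AAGGTCA. None of these motifs was in the Ppara promoter. A seventh motif searched, the GC box GGGCGG, is not in capitals. It was in the Ppara promoter at 2 places and in 11 of the 19 promoters (8 of 10 genes), against 32.7% of all promoters. This motif holds only G and C, and GC content was 76.4% for Ppara and 40.8% to 82.4% over the 19 promoters. The median over all promoters was 52.4%, and the shares were not compared at like GC content. Over all 10 genes, 3 had AGGTCA in at least 1 promoter, 3 had TTGCNNAA and 1 had CACGTG. By promoter, these were 4, 3 and 1 of the 19. The direct repeat DR1 of that half-site, to which PPAR and RXR dimers bind, was in 0 of the 19 promoters and in 0.0335% of all, and the ERR element TCAAGGTCA was in 0 and in 0.387%. A match is a run of letters and was not tested as a binding site, and the array measures transcripts only.

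The comparison of DKO with Gadd45a-KO asks what loss of Ing1 does where Gadd45a is also missing. Klf15, Ppara, Rxrg and Pparg rose, by 0.83 to 1.22 on the log2 scale, and none of the 10 fell. These are 4 of 10 genes, where 6.49% of all features rose and 8.47% fell (15% in either direction). The median log2 difference was 0.67 over the 10 genes and -0.03 over all features. With each array centred on its median, the share of calls that were rises was 59% in place of 43.4%.

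Klf15 is induced by glucocorticoids and fasting. It had normalized log2 signals of 9.96, 10.03 and 9.72 in the Gadd45a-KO arrays and 11.08, 10.87 and 10.56 in the DKO arrays, replicates 1 to 3. Every DKO array lay above every Gadd45a-KO array. The difference was 0.93 ± 0.20 (SE, n = 3 arrays per group; adjusted p = 0.0178, limma with Benjamini-Hochberg adjustment), or 1.91-fold.

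Ppara, the receptor that the fibrate drugs activate, stood at 11.67, 11.35 and 10.96 in Gadd45a-KO and at 12.55, 12.52 and 12.59 in DKO. The DKO arrays were nearly level with each other and all above the Gadd45a-KO arrays. The rise was 1.22 ± 0.28 (SE, n = 3; adjusted p = 0.0213), or 2.33-fold. In a fit of every probe, a second Ppara probe gave 1.31 ± 0.31 (adjusted p = 0.0215) and the third gave 0.74 ± 0.30, which did not pass (adjusted p = 0.104).

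For Rxrg, the RXR with the narrowest tissue range, Gadd45a-KO arrays read 11.37, 11.23 and 11.16 and DKO arrays 12.42, 12.27 and 11.56. DKO replicate 3 was the lowest of its group and still above the Gadd45a-KO arrays. The rise was 0.83 ± 0.23 (SE, n = 3; adjusted p = 0.0338), or 1.78-fold. On the second Rxrg probe the difference was 0.52 ± 0.21 and did not pass (adjusted p = 0.105).

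Pparg, which has 1 probe here, read 14.21, 13.97 and 13.91 in Gadd45a-KO and 15.01, 15.26 and 14.43 in DKO. Again DKO replicate 3 was the lowest of its group, and the groups did not overlap. The rise was 0.87 ± 0.25 (SE, n = 3; adjusted p = 0.0393), or 1.83-fold.

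The other 6 genes did not pass in this fit, but Nr1h3 and Rxra did with the slide as a block (adjusted p = 0.0370 and 0.0478), which makes 6 of 10 genes against 19.3% of features. Nr1h3 read 13.24, 13.27 and 13.20 in Gadd45a-KO and 13.89, 13.74 and 13.48 in DKO, a difference of 0.46 ± 0.15 just outside the threshold (adjusted p = 0.0504). Esrrg differed by 0.76 ± 0.28 (adjusted p = 0.0874) and Rxra by 0.57 ± 0.21 (adjusted p = 0.0877), whereas the second Rxra probe gave -0.07 ± 0.20. Esrra differed by 0.31 ± 0.15, Ppard by -0.09 ± 0.20 and Rxrb by -0.17 ± 0.11, with adjusted p from 0.180 to 0.803. In all, 7 genes had DKO arrays wholly above the Gadd45a-KO arrays and 1, Rxrb, wholly below, where 16.5% of features were wholly above and 20.8% wholly below.

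These calls depended on single arrays. Of the 10 genes, 0 passed without DKO replicate 1, DKO replicate 2 or Gadd45a-KO replicate 3, 1 without Gadd45a-KO replicate 2, 2 without Gadd45a-KO replicate 1 or Ing1-KO replicate 2, and 6 without DKO replicate 3 or WT replicate 2. The share of all features passing moved in the same fits, from 1.71% without Gadd45a-KO replicate 3 to 22.5% without DKO replicate 3. None passed without the 3 arrays highest in muscle markers, where the differences were 0.84 for Klf15, 1.39 for Ppara, 0.72 for Rxrg and 0.91 for Pparg, or with the array's column on the slide as a block; in these fits 0.00318% and 0.00954% of features passed.

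**Figure D1:**
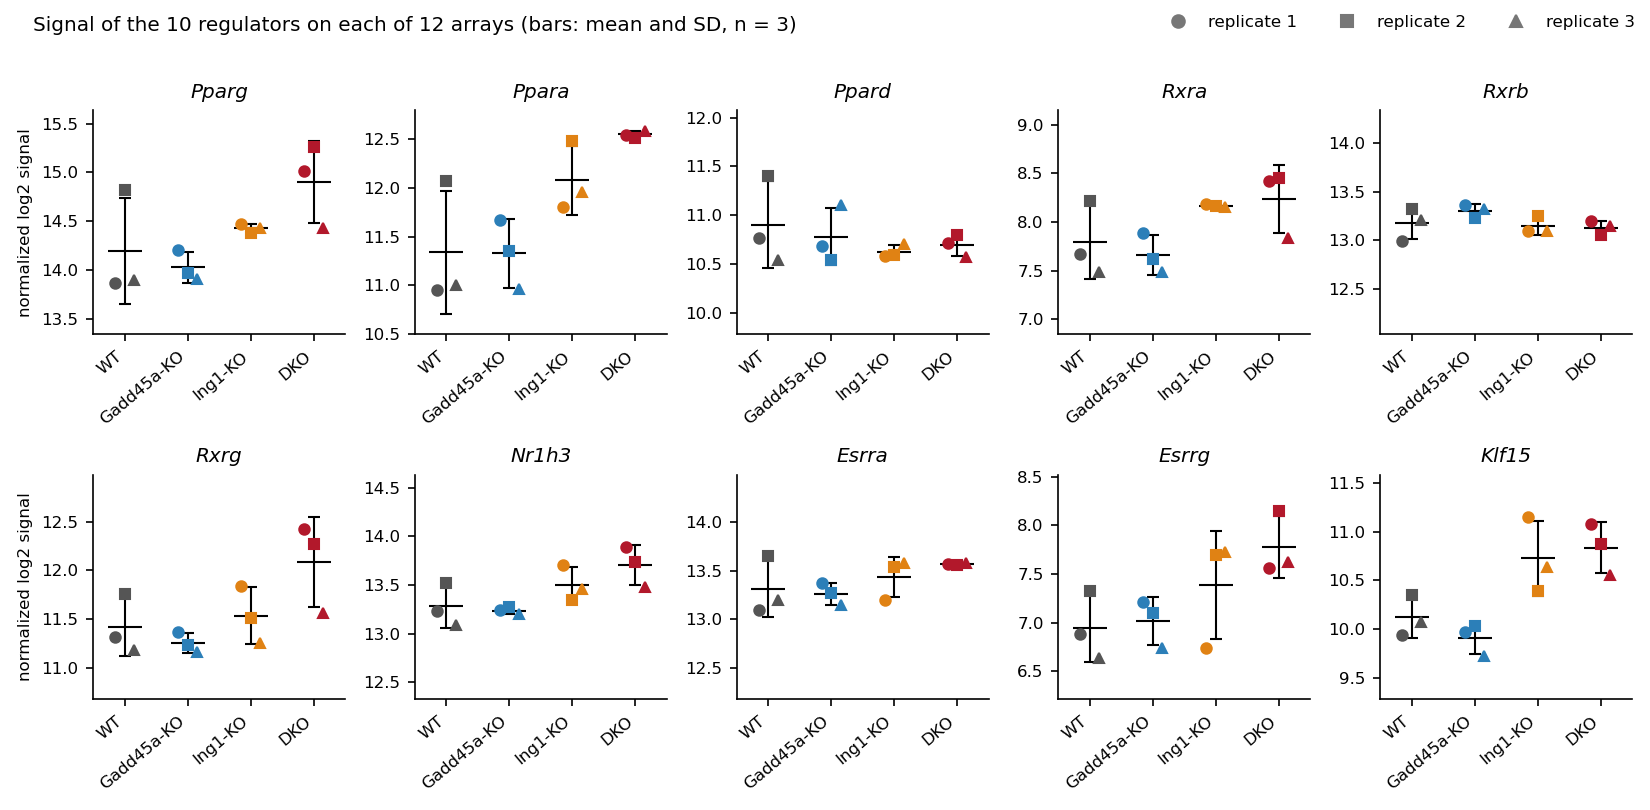
Normalized log2 signal (y axis, each panel spanning the same range of log2 units) of the 10 regulators in 4 genotypes (x axis), with 1 point per array, the point's shape for the replicate, a dash for the mean and a bar for the SD (n = 3). The 6 Klf15 points of Ing1-KO and DKO, from 10.39 to 11.15, lie above all 6 of WT and Gadd45a-KO, and WT replicate 2 (square) is the highest WT point in each panel.

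The effect of Ing1 loss was also taken over both Gadd45a backgrounds, with 6 arrays lacking Ing1 against 6 that have it; it shares arrays with the comparison above and is not separate evidence. Klf15, Ppara and Nr1h3 rose, and none of the 10 fell. These 3 of 10 genes stand beside 6.93% of all features that rose and 9.09% that fell (16% in either direction). The median log2 difference was 0.47 over the 10 genes and -0.04 over all features, and 8 of 10 genes had a positive difference against 44.6% of features. With each array centred on its median, rises made up 63.7% of all calls in place of 43.3%, and 7 of the 10 genes passed, against 14.6% of features in either direction.

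Klf15 ranged from 9.72 to 10.35 (median 9.998) on the arrays with Ing1 and from 10.39 to 11.15 (median 10.75) on those without. All 6 arrays without Ing1 lay above all 6 with it, which holds for 3.38% of features in the upward direction. The rise was 0.77 ± 0.14 (SE, n = 6 arrays per side; adjusted p = 0.00928), or 1.702-fold. Within slides, the arrays without Ing1 were higher in 6 of 6 pairs, by 0.04 to 1.22; the smallest gap was between Ing1-KO and WT on slide 2.

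Ppara ranged from 10.95 to 12.07 (median 11.17) with Ing1 and from 11.80 to 12.59 (median 12.50) without it. The ranges overlapped through WT replicate 2 alone, at 12.07, and without that array they were apart. The rise was 0.98 ± 0.20 (SE, n = 6; adjusted p = 0.0127), or 1.98-fold, with 6 of 6 slide pairs higher by 0.41 to 1.62. A second probe gave 1.06 ± 0.22 (adjusted p = 0.0129) and the third 0.44 ± 0.21 (adjusted p = 0.163).

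Nr1h3 ranged from 13.09 to 13.53 (median 13.24) with Ing1 and from 13.34 to 13.89 (median 13.59) without it. Here too WT replicate 2 made the overlap. The rise was 0.34 ± 0.10 (SE, n = 6; adjusted p = 0.0427), or 1.27-fold, with 5 of 6 slide pairs higher. The second Nr1h3 probe gave 0.28 ± 0.12 and did not pass (adjusted p = 0.131).

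Pparg, Rxra, Rxrg and Esrrg lay just outside the threshold. Their differences were 0.55 ± 0.18, 0.47 ± 0.15, 0.47 ± 0.16 and 0.60 ± 0.20 in that order, with adjusted p between 0.0532 and 0.0639. Each was higher without Ing1 in 5 of 6 slide pairs. For Pparg, Rxra and Rxrg the exception was Ing1-KO against WT on slide 2, which holds WT replicate 2. For Esrrg it was slide 1, which holds Ing1-KO replicate 1, the array highest in muscle markers. Both Esrrg probes gave a like difference, the second 0.63 ± 0.22, whereas the second Rxra probe gave 0.03 ± 0.14.

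Esrra, Ppard and Rxrb did not pass. Esrra, the ERR form most often linked to mitochondrial genes, differed by 0.21 ± 0.11 (adjusted p = 0.187). Ppard differed by -0.18 ± 0.14 (adjusted p = 0.403) and Rxrb by -0.10 ± 0.08 (adjusted p = 0.374). Rxrb spanned only 0.37 log2 units over all 12 arrays, from 13.00 to 13.36, the narrowest range of the 10 genes.

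Klf15 and Ppara passed without each of the 12 arrays in turn. Neither passed without the 3 arrays highest in muscle markers (0.61 ± 0.14 and 1.14 ± 0.24) or with array column as a block. Of all features, only 1 and 39 passed in these fits, against 5038 in the fit as reported. Nr1h3 did not pass in 15 of 25 alternatives, and without WT replicate 2 the count rose to 8 of 10 genes, Ppard and Rxrb being the exceptions, as the share of all features rose to 22.1%. With the replicate number, that is the slide, as a block, 7 of 10 genes passed, against 20.2% of features: Pparg, Ppara, Rxra, Rxrg, Nr1h3, Esrrg and Klf15.

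**Figure D2:**
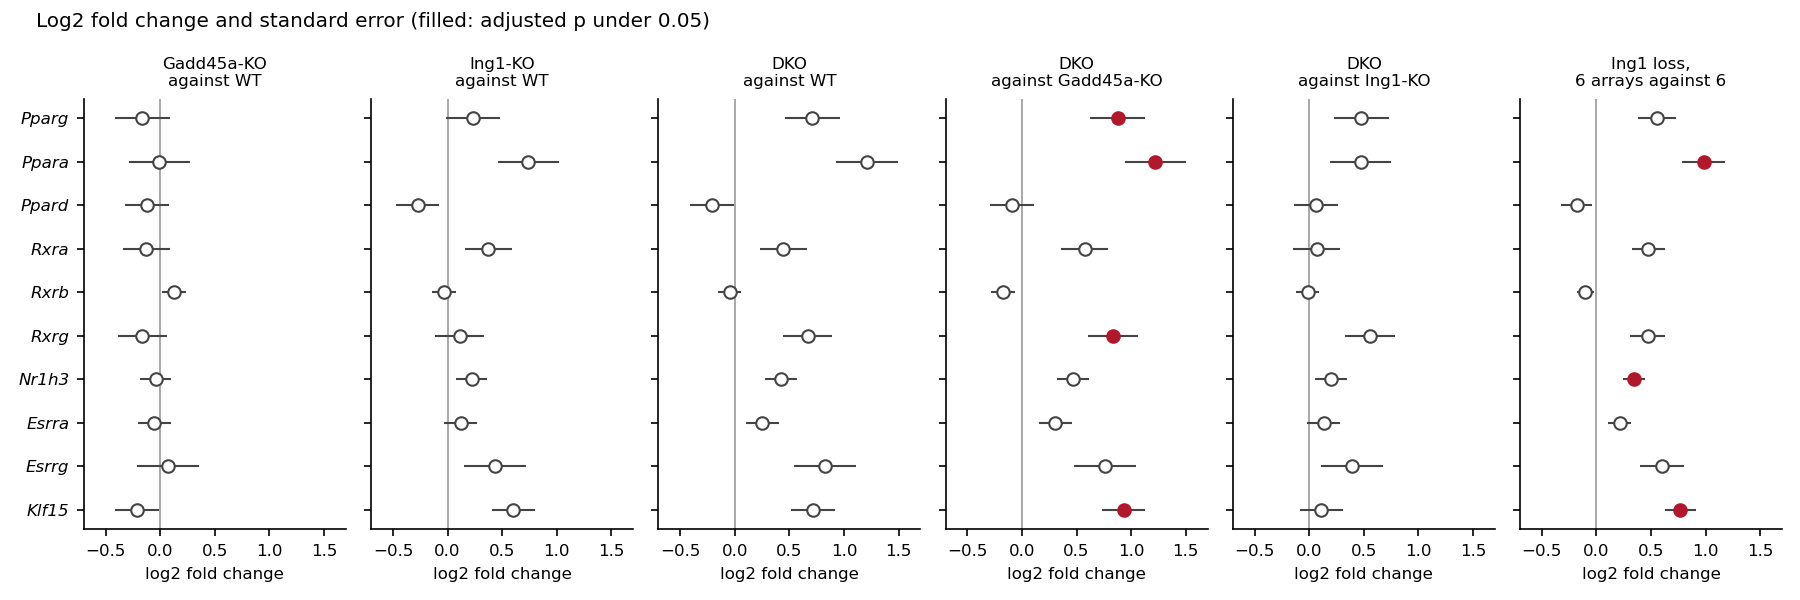
Log2 fold change (x axis) of the 10 regulators (y axis) in 6 comparisons, with the standard error as a bar; a filled point passed an adjusted p of 0.05 and an open point did not. Filled points appear only in DKO against Gadd45a-KO (4) and in the 6 against 6 arrays for Ing1 loss (3), and the points of Ppard and Rxrb stay near or below 0 in both.

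In DKO against WT, the comparison of both losses with neither, no regulator passed (adjusted p from 0.0723 to 0.832), where 0.0827% of features rose and 0.0795% fell. At an unadjusted p under 0.05, 6 of 10 genes were higher in DKO, against 10.2% of features. Ppara read 10.95, 12.07 and 10.998 in WT and 12.55, 12.52 and 12.59 in DKO, a difference of 1.21 ± 0.28 (SE, n = 3). Its groups did not overlap, and neither did those of Klf15 (0.72 ± 0.20) and Esrrg (0.83 ± 0.28), 3 genes in all, against 9.66% of features. Ppara passed with the slide as a block (adjusted p = 0.0454), where 2.08% of features did. WT replicate 2 was the nearest WT array to DKO for each of these 3, and without it 2 of 10 genes passed, Pparg (1.02 ± 0.20) and Ppara (1.58 ± 0.21), where 3.79% of features passed. Without DKO replicate 3, 5 of 10 genes passed, and the share of all features passing rose to 10.5%.

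In Ing1-KO against WT, no regulator passed (adjusted p from 0.542 to 0.944), and of all features 0.00318% fell and 0% rose. Ppara with 0.74 ± 0.28 and Klf15 with 0.60 ± 0.20 (SE, n = 3) were higher at an unadjusted p under 0.05, 2 of 10 genes against 3.75% of features. Klf15 read 9.93, 10.35 and 10.08 in WT and 11.15, 10.39 and 10.63 in Ing1-KO. It was the 1 gene of 10 whose Ing1-KO arrays were wholly above the WT arrays, against 7.24% of features, but WT replicate 2 and Ing1-KO replicate 2 were almost level. Ing1-KO replicate 1, the highest Klf15 array of all 12, is also the array highest in muscle markers, and the part of muscle in that value was not tested beyond leaving the array out.

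In Gadd45a-KO against WT, no regulator passed (adjusted p = 0.9997 for each of the 10), where 0% of features did. At an unadjusted p under 0.05 the count was 0 of 10, against 2.35% of features. The log2 differences ran from -0.22 for Klf15 to 0.13 for Rxrb, with a median of -0.09 against 0.00 over all features. Taken over both Ing1 backgrounds, 6 arrays against 6, the median was 0.07, again with 0 of 10 genes passing, where 0.00318% of features did, and 0 at an unadjusted p under 0.05, against 0.935%.

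In DKO against Ing1-KO, no regulator passed, where 0.00318% of features did. Rxrg, at 11.83, 11.51 and 11.25 in Ing1-KO against 12.42, 12.27 and 11.56 in DKO, was higher on all 3 slides with a difference of 0.56 ± 0.23 (SE, n = 3; unadjusted p = 0.0306, adjusted p = 0.948). It was the only one of the 10 at an unadjusted p under 0.05, against 1.43% of features. Klf15 and Rxra differed by 0.11 ± 0.20 and 0.07 ± 0.21.

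The interaction, which is the effect of Ing1 loss in DKO less that in the single knockout, was positive for 9 of 10 genes, with a median of 0.28 against 0.01 over all features. None passed, where 0% of features did. At an unadjusted p under 0.05, Rxrg with 0.72 ± 0.32 (SE) was 1 of 10, against 2.31% of features. Pparg had 0.64 ± 0.36 (adjusted p = 0.728). A difference between the effects of Ing1 loss in the presence and in the absence of Gadd45a did not pass for any of the 10 genes.

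By group mean, Ppara was highest in DKO (12.55 ± 0.04, SD, n = 3), followed by Ing1-KO (12.08 ± 0.35), WT (11.34 ± 0.63) and Gadd45a-KO (11.33 ± 0.35). WT and Gadd45a-KO were within their spread of each other. Pparg had the order DKO (14.90 ± 0.42), Ing1-KO (14.43 ± 0.05), WT (14.19 ± 0.54) and Gadd45a-KO (14.03 ± 0.16), and of these neighbours none differed at an unadjusted p under 0.05. Klf15 had the same order, with DKO (10.84 ± 0.26) and Ing1-KO (10.72 ± 0.39) within their spread and WT at 10.12 ± 0.21 and Gadd45a-KO at 9.90 ± 0.16. Rxra, Rxrg, Nr1h3 and Esrra were likewise highest in DKO and lowest in Gadd45a-KO. The second Rxra probe differed, being highest in Gadd45a-KO (7.12 ± 0.08) and lowest in WT (6.91 ± 0.29). Esrrg was highest in DKO and lowest in WT. Ppard, in contrast, was highest in WT (10.90 ± 0.45) and lowest in Ing1-KO (10.63 ± 0.07), which is within the WT spread. Rxrb was highest in Gadd45a-KO (13.30 ± 0.07) and lowest in DKO (13.13 ± 0.07), the pair whose arrays did not overlap and whose difference did not pass.

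WT replicate 2, the dimmest array, stood above the mean of the other WT arrays for all 10 genes, by 0.22 for Rxrb to 1.09 for Ppara. It was the highest of all 12 arrays for Ppard (11.40) and Esrra (13.65). Its mean of the 10 fat cell markers, as a deviation from their mean over all arrays, was 0.26, against -0.20 and -0.31 on the other WT arrays.

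Of the 10 fat cell markers, 4 rose in DKO against Gadd45a-KO, 3 in Ing1 loss and 0 in DKO against WT, and 0 fell. The shares of all features that rose there were 6.49%, 6.93% and 0.0827%. The log2 of the summed signal of the 10 markers was 20.06 to 20.68 in WT, 19.92 to 20.18 in Gadd45a-KO, 20.21 to 20.37 in Ing1-KO and 20.23 to 20.76 in DKO. Of the markers, 8 are also in the PPAR gamma target list below, so that marker and target cannot be told apart. With the marker mean as a covariate, a fit added after the values were seen, 0 of 10 genes passed in any comparison. Few features passed in that fit at all, 7 in Ing1 loss and 1 in DKO against Gadd45a-KO. Without the covariate these counts were 5038 and 4704. The Ing1-loss difference became -0.05 ± 0.13 for Pparg, -0.03 ± 0.12 for Rxra and -0.07 ± 0.13 for Rxrg (SE). For Ppara it became 0.60 ± 0.27 (adjusted p = 0.281) and for Klf15 0.40 ± 0.16 (adjusted p = 0.234). The part of fat cell content in these results was not tested apart from this fit.

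**Figure D3:**
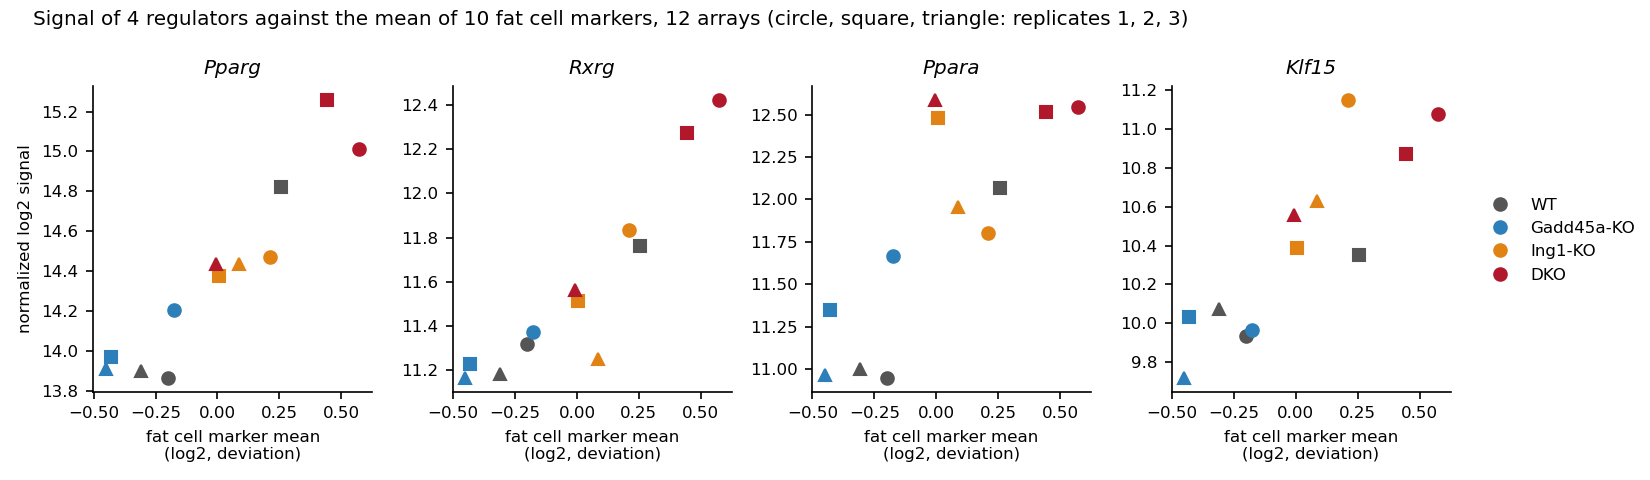
Normalized log2 signal of Pparg, Rxrg, Ppara and Klf15 (y axes) against the mean of 10 fat cell markers on the same array, as a log2 deviation from the mean over 12 arrays (x axis), coloured by genotype. DKO replicates 1 and 2, at 0.57 and 0.44, are the arrays furthest right and the highest for Pparg and Rxrg, whereas for Ppara all 3 DKO arrays are near 12.5 although DKO replicate 3 has a marker mean of -0.01.

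Brown or beige fat cell markers, 9 genes among them Ucp1 and Cidea, were also highest in DKO. Their summed log2 signal was 18.00 to 18.46 in DKO, against 16.55 to 17.66 in Ing1-KO, 16.16 to 17.32 in Gadd45a-KO and 16.38 to 17.83 in WT. T cell markers ran the other way, at 14.60 to 15.87 in DKO and 15.49 to 16.11 in Ing1-KO, against 15.97 to 16.37 in WT and 16.22 to 16.58 in Gadd45a-KO. In DKO against Gadd45a-KO, 7 of 9 T cell markers fell and 0 rose, where 8.47% of features fell and 6.49% rose. Of the 9 brown or beige markers, 2 rose in DKO against Gadd45a-KO, 1 in Ing1 loss and 0 in DKO against WT. In those comparisons 6.49%, 6.93% and 0.0827% of features rose.

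Neutrophil markers showed the largest median difference of the marker lists in DKO against Gadd45a-KO and in Ing1 loss. Of 6 tested, 5 fell in each, with medians of -3.82 and -1.99 on the log2 scale, where 8.47% and 9.09% of features fell. Their mean deviation from the average over all arrays was 0.88 to 3.64 in Gadd45a-KO, against -1.30 to 0.42 in WT, -1.60 to 0.25 in Ing1-KO and -1.65 to -0.92 in DKO, so that Gadd45a-KO stood above the other genotypes. The summed log2 signal differed less, at 16.96 to 17.27 in Gadd45a-KO, 16.77 to 16.97 in WT, 16.59 to 16.75 in Ing1-KO and 16.61 to 16.79 in DKO. In DKO against Gadd45a-KO, 2 of 6 B cell markers and 2 of 8 macrophage markers fell, against 8.47% of features. Their medians were -0.78 and -0.33, and none of either list rose. Whether these cell types bear on the regulators was not tested.

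Genes tied to the regulators were taken in lists, 184 genes in 9 lists, of which 14 are in more than 1. The PPAR, LXR, ERR and KLF15 lists hold targets, the last also glucocorticoid-linked genes. The other lists hold coregulators, partners of RXR, genes of ligand supply and handling, and fat cell factors acting with PPAR gamma. In the 6 against 6 arrays for Ing1 loss, PPAR gamma targets of fat cells rose in 9 of 26 and fell in 0, with a median log2 difference of 0.49 against -0.04 over all features. Over all features 6.93% rose and 9.09% fell in this comparison, the background to each list count here. Dgat1, the last enzyme of triglyceride synthesis, had 0.77 ± 0.14 (SE), the fatty acid ligase Acsl1 0.67 ± 0.13 and the fatty acid transporter Cd36 0.65 ± 0.13. Pck1, needed for glyceroneogenesis, had 0.67 ± 0.13. The fatty acid binding protein Fabp4 was at -0.03 ± 0.10 and the adipokine Cfd at -0.02 ± 0.12, neither of which passed.

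PPAR alpha and PPAR delta targets rose in 14 of 28 and fell in 2, with a median of 0.57. Among them were Acadl with 0.84 ± 0.10 and Acadm with 0.75 ± 0.14, which start mitochondrial beta-oxidation. Slc25a20, the carnitine carrier, had 0.92 ± 0.16 and the lipid droplet protein Plin5 0.95 ± 0.23. The 2 that fell, named after their values were seen, were the uncoupling protein Ucp2 (-0.50 ± 0.14) and the carnitine transferase Cpt1a (-0.28 ± 0.09). Its muscle counterpart Cpt1b, which is also one of the brown or beige fat markers above, had 0.84 ± 0.38 and did not pass. Fabp3, the fatty acid binding protein of heart and muscle, had 1.498 ± 0.57 and did not pass. Its level was 13.28 ± 0.25 (SD, n = 3) in DKO, 11.33 ± 1.57 in Ing1-KO, 10.83 ± 1.03 in Gadd45a-KO and 10.80 ± 1.45 in WT. On DKO replicates 1 to 3, the mean deviation was 2.21, -0.68 and -0.82 for the muscle markers. For the brown or beige markers it was 1.43, 0.78 and 0.90. The part of either in the Fabp3 level was not tested.

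ERR targets of mitochondria rose in 10 of 22 and fell in 0, with a median of 0.49. The Krebs cycle genes Idh3b (0.77 ± 0.16) and Sdha (0.49 ± 0.10) rose, as did the angiogenic factor Vegfa (0.62 ± 0.09). Targets of Klf15 and glucocorticoid-linked genes rose in 9 of 17 and fell in 0, with a median of 0.41. Bckdha (0.59 ± 0.14) and Bckdhb (0.59 ± 0.12), subunits of the complex that breaks down branched-chain keto acids, rose together with Alas1 (0.49 ± 0.10), the first enzyme of heme synthesis. The glucocorticoid-induced Fkbp5 (0.04 ± 0.18) and Tsc22d3 (0.18 ± 0.11) did not pass.

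LXR targets rose in 1 of 13 and fell in 1, near the share of all features that did, with a median of 0.12. The cholesterol exporter Abcg1 fell by 0.67 on the log2 scale (SE 0.08, adjusted p = 0.00230), with group means of 12.59 in WT, 13.01 in Gadd45a-KO, 12.27 in Ing1-KO and 11.98 in DKO. Smpdl3a rose by 0.31 ± 0.09. Apoc1 (0.24 ± 0.11) and Nr1h2 (0.105 ± 0.064) did not pass. Nr1h2 is itself a nuclear receptor and is also in the list of other partners of RXR. Abca1, another cholesterol exporter, had 0.12 ± 0.12, and the lipogenic targets Srebf1 and Scd1 had 0.24 ± 0.18 and 0.12 ± 0.13, none of which passed.

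Coactivators and corepressors rose in 5 of 22 and fell in 1, with a median of 0.06. The 5 were Lpin1 (1.00 ± 0.15), Ppargc1a (0.84 ± 0.18), Ebf2 (0.71 ± 0.12), Prdm16 (0.53 ± 0.15) and Nrip1 (0.47 ± 0.14), the last named after its value was seen. Ppargc1a is the coactivator of the ERRs and PPARs, and Ebf2 and Prdm16 are known for the brown fat programme, whose markers were highest in DKO. Nrip1 is a corepressor of nuclear receptors in fat. Pprc1, a relative of Ppargc1a, fell by 0.43 (SE 0.13, also named after its value was seen). The general coregulators Ncoa1, Ncor1, Med1 and Hdac3 lay between -0.10 and 0.19 and did not pass.

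Other partners of RXR rose in 3 of 18 and fell in 3, with a median of 0.18, beside the 6.93% of features that rose and 9.09% that fell. The thyroid hormone receptor Thrb rose by 0.81 ± 0.15 and Rora by 0.64 ± 0.14, while Nr2f2 had 0.19 ± 0.10 and did not pass. Nr1i3, the xenobiotic receptor CAR, fell by 1.09 (SE 0.23), and the retinoic acid receptor Rara fell by 0.32 (SE 0.07, named after its value was seen). Genes of ligand supply and handling rose in 3 of 25 and fell in 5, with a median of 0.29. Prostaglandin D synthase Ptgds fell by 0.75 (SE 0.11) and the retinol transporter Stra6 by 0.83 (SE 0.21). Ptgs2, a dim gene with a WT mean of 3.35, had 0.55 ± 0.24 and did not pass. Against WT, Ptgs2 differed by 0.81 ± 0.34 in Gadd45a-KO, 0.85 ± 0.34 in Ing1-KO and 1.05 ± 0.34 in DKO. Each was at an unadjusted p under 0.05, and none passed. Fat cell factors acting with PPAR gamma rose in 4 of 18 and fell in 1, with a median of 0.18. Klf9 rose by 0.52 ± 0.13, Mlxipl by 0.58 ± 0.17 and Zfp467 by 0.44 ± 0.10, as did Cebpa, named after its value was seen, by 0.54 ± 0.16. Gata3, a factor that holds back fat cell differentiation, fell by 0.54 (SE 0.11).

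**Figure D4:**
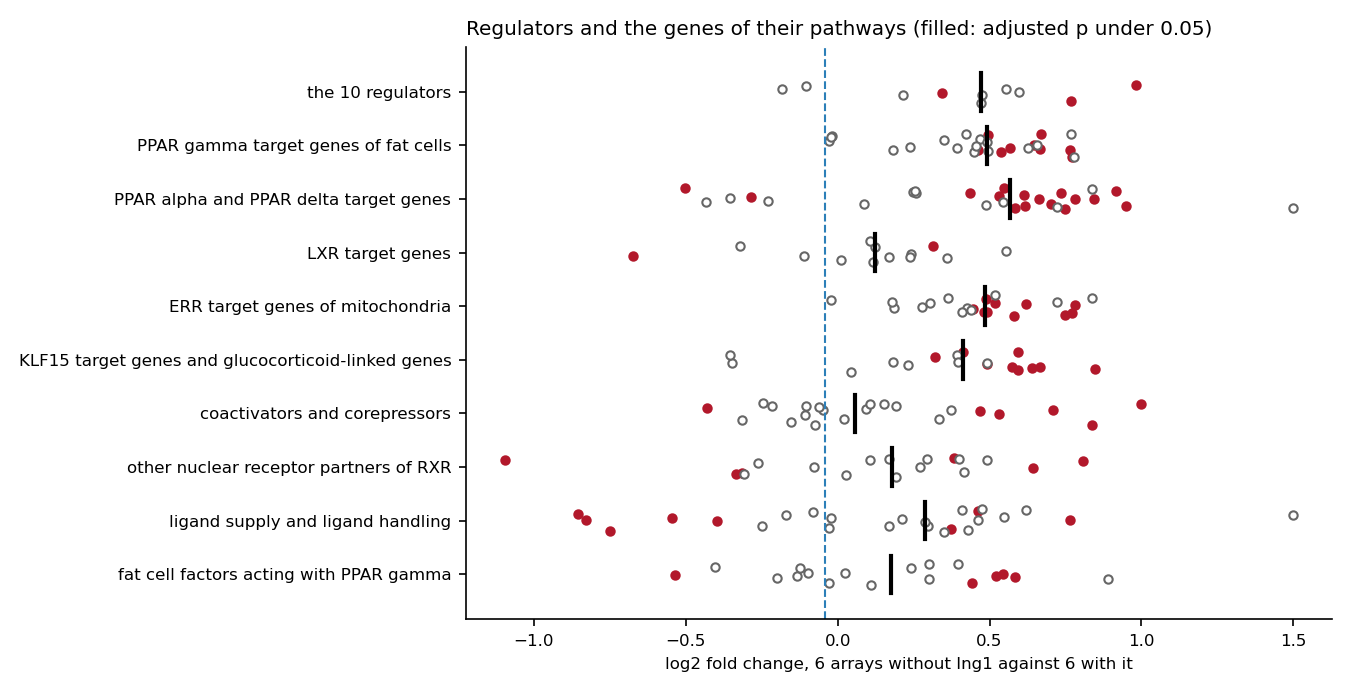
Log2 fold change of each tested gene (x axis) in the 6 arrays without Ing1 against the 6 with it, for the 10 regulators and 9 lists (y axis); filled points passed an adjusted p of 0.05, black bars are list medians and the dashed line is the median of all features, -0.04. Medians of the PPAR, ERR and KLF15 lists lie between 0.41 and 0.57, and those of the LXR list and of coactivators and corepressors at 0.12 and 0.06.

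In DKO against Gadd45a-KO, which shares arrays with the above, the counts were 11 of 26 higher for PPAR gamma targets, 14 of 28 higher and 4 lower for PPAR alpha and PPAR delta targets, 12 of 22 higher for ERR targets, 7 of 17 higher and 1 lower for KLF15 targets, and 0 higher and 1 lower of 13 for LXR targets. Over all features 6.49% were higher and 8.47% lower, and the LXR count is near those shares. Their medians were 0.79, 0.86, 0.72, 0.66 and 0.29 in that order. In DKO against WT, 1 of 28 PPAR alpha and PPAR delta targets rose and no gene of the other lists passed, where 0.0827% of features rose. In Gadd45a-KO against WT no gene of any list passed, as no feature did, and the medians of the PPAR gamma, PPAR alpha and ERR lists were -0.23, -0.11 and -0.15.

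Genes whose signal followed a regulator most closely over the 12 arrays were taken from 15107 named genes by Pearson correlation, as a description over arrays that share slides, scaling and tissue make-up. Pparg was followed by Gstt1 (r = 0.995), Arhgap35 (0.989) and Ogfod3 (0.985). For Ppara they were Slc25a42 (0.976), a mitochondrial carrier of coenzyme A, Sgk3 (0.970) and Hspa4l (0.962). Klf15 was closest to Rhbg (0.980), Ywhab (0.971) and Arxes1 (0.969). Nr1h3 had Bckdhb, one of the KLF15 targets above, among its 3 (0.970). Rxrb had the lowest leading value, 0.938 with Spns1, and none of the 10 regulators' 3 nearest genes was shared with another of them.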

How the data were processed

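Cy3-labelled RNA was measured on 12 one-colour arrays, 3 for each genotype, grouped by the genotype in the labels. The deposited scanner files hold intensity values, per the file headers from Feature Extraction 10.7.3.1, with a background-subtracted processed signal. The deposited value table of the authors is in log2 units; the submitters' processing notes name limma 3.26.9, and its normalization is not given in the sources used here. Its 38927 probes followed the scanner values of the same array at r = 0.843 or more (at most 0.422 with another array), and it served as an alternative.

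Flagged spots were dropped, log2 processed signals of a probe's spots were averaged, and each array was shifted to a common 75th percentile. Of 55681 probes, 94 had no value on an array, and 27469 of 29107 with a RefSeq accession were named through a GRCm38.p6 table; the array's own grid uses an older assembly. The filter asked for a signal well above background on 3 or more arrays and kept the brightest probe per gene, in all 31453 features (15954 named). limma 3.58.1 in R 4.3.3 was fitted to all 12 arrays with 4 group means (8 residual degrees of freedom, trend and robust moderation), with two-sided tests and Benjamini-Hochberg adjustment over all features at 0.05. The fit was tested on simulated data. An adjusted p of a gene's further probes comes from a fit of every probe.

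The regulators and lists were chosen with earlier results of these data known. Named are the 10 genes, Ing1 and Gadd45a, in each list the 4 genes with the smallest p in DKO against WT, and for each regulator the 3 genes with the highest correlation; others are marked as named after their values were seen or stand as contrasts that did not pass. Alternatives were quantile normalization, median centring, the authors' values, normexp (offset 50), no filter or one on all 12 arrays, every probe, plain empirical Bayes, only the arrays compared, a block for slide, array row or array column, leaving out each array, and the fit without the 3 arrays highest in muscle markers; the fat cell marker covariate was chosen after seeing the data. The replicate number is the slide. Over 18 same-numbered pairs, deviations from group means correlated at -0.276 to 0.424, with 9 over 0.1. The number of arrays limits the precision.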

Additional observations from a re-analysis of the deposited data

Results flagged for a closer look

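For 3 of the genes named from the lists, arrays labelled as lacking Gadd45a differed from the others in a direction that changed with Ing1. The difference ran one way on all 3 slides where Ing1 is present and the other way on all 3 where it is absent. These genes come from the 4 per list named for the smallest p in DKO against WT, not from a count over every listed gene. The share of all features with this pattern was not taken, so whether 3 genes is more than that share was not tested. The cholesterol exporter Abcg1 was higher in Gadd45a-KO than in WT (0.42 ± 0.11, SE, n = 3) and lower in DKO than in Ing1-KO (-0.29 ± 0.11), with an interaction of -0.71 ± 0.16. Gata3, which holds back fat cell differentiation, had 0.39 ± 0.16, -0.40 ± 0.16 and an interaction of -0.80 ± 0.23. The fatty acid transporter Cd36 had -0.31 ± 0.18, 0.34 ± 0.18 and an interaction of 0.65 ± 0.26. The interaction is the test of this difference, and it did not pass for any of the 3 (adjusted p = 0.728 each, limma with Benjamini-Hochberg adjustment).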

How the results depend on the processing

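Of 2050 log2 differences of the 10 regulators under the alternatives, 1858 kept their direction and side of the threshold, 59 no longer passed and 45 newly passed. The sign changed in 88, of which 75 had a difference within its SE of 0 in the fit as reported, none of these passing there. They were most frequent without WT replicate 2 (14) and with the fat cell marker covariate (14), and 8 of the 75 were Ppara in Gadd45a-KO against WT, which ran from -0.20 to 0.35. The other 13 are counted as reversals. With the fat cell marker covariate, added after seeing the data, 12 reversed. In Ing1 loss these were Pparg (-0.052), Rxra (-0.026) and Rxrg (-0.065). For DKO against Gadd45a-KO they were Pparg (-0.080), Rxra (-0.21), Rxrg (-0.014) and Nr1h3 (-0.0060), and for the interaction Pparg (-0.056), Nr1h3 (-0.10) and Klf15 (-0.099). The others were Rxra in DKO against WT (-0.038) and Klf15 in Gadd45a-KO against WT (0.011). The last reversal was Ppard in DKO against WT, which ran from -0.39 to 0.039 with each array left out, the highest without WT replicate 2. In Ing1 loss, 3 regulators passed in the fit as reported, where 16% of features did. With quantile normalization 6 passed, against 15.8% of features, and with median centring 7, against 14.6%. With normexp or the filter on all 12 arrays 5 passed, against 16.3% and 20.4% of features. With array column as a block, without the 3 muscle-high arrays or with the covariate 0 passed, where few features did, as given below. In DKO against Gadd45a-KO 4 passed in the fit as reported, where 15% of features did. With plain empirical Bayes 2 passed, against 10.4% of features, and with only the arrays compared 2, against 1.6%. With array row as a block 2 passed as well, and 0 with array column, without the muscle-high arrays or with the covariate. With the replicate block, 7 passed in Ing1 loss and 1 in DKO against WT, where 653 features passed. In DKO against Gadd45a-KO 6 passed with the block against 4, with Nr1h3 and Rxra added; pairing by slide changed no regulator's call in the other comparisons.

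Features passing in DKO against WT were 202 with normexp, 25 with no filter, 4 with plain empirical Bayes, 3 with array row, and 1 with only the arrays compared, array column, without the muscle-high arrays or with the covariate, against 51. In DKO against Gadd45a-KO they were 3062 with no filter, 502 with only the arrays compared, 3 with array column, and 1 without the muscle-high arrays or with the covariate, against 4704. In Ing1 loss they were 39, 1 and 7 with array column, without the muscle-high arrays and with the covariate, against 5038. In Ing1-KO against WT they were 5, 4, 2, 2 and 11 with quantile normalization, median centring, normexp, the authors' values and every probe, against 1. In DKO against Ing1-KO they were 0 with only the arrays compared, array column or without the muscle-high arrays, and in Gadd45a loss 0, 0 and 2 with array column, without the muscle-high arrays and with the covariate, each against 1.

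With each array left out in turn, regulators passing ran from 0 to 6 in DKO against Gadd45a-KO, 2 to 8 in Ing1 loss and 0 to 5 in DKO against WT. The 8 came without WT replicate 2 and the 5 without DKO replicate 3. Features passing ran from 539 (without Gadd45a-KO replicate 3) to 7065 (without DKO replicate 3), from 1901 (without Ing1-KO replicate 1) to 7087 (without DKO replicate 3) and from 1 (without DKO replicate 2, among others) to 3307 (without DKO replicate 3) in the same order. They ran from 1 to 16 in Ing1-KO against WT, 0 to 3 in DKO against Ing1-KO, 0 to 1 in Gadd45a-KO against WT and 1 to 2 in Gadd45a loss. The cause of these changes was not tested. With normexp the median of all features was 0.12 for the interaction, -0.10 for DKO against WT and -0.13 for Ing1-KO against WT.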
